A study of Mus musculus with 24 samples.

Results

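The Id genes of the mouse, Id1, Id2, Id3 and Id4, were followed across dissected parts of the embryonic jaws with and without the TGF-beta type I receptor Alk5, also called Tgfbr1. They are 4 of 13837 genes tested and are covered by 8 of the 45101 probe sets of the Affymetrix Mouse430_2 array. For each gene the probe set was chosen by its mean level over the 24 arrays, the highest being kept, so a probe set's overall level is a description and supports nothing here. The kept probe sets were 1425895_a_at for Id1, 1435176_a_at for Id2, 1416630_at for Id3 and 1423259_at for Id4. Id1 and Id3 had 1 probe set each. For Id2 the kept probe set had a mean of 11.98 on the log2 scale and the next one 11.67. For Id4 these means were 10.02 and 9.63. All 4 genes passed the filter on low levels.

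Total RNA came from the mandible and the maxilla of C57B6 embryos at embryonic day 12.5, each jaw being divided into a proximal and a distal end. The parents were Wnt1cre;Alk5fl/+ and Alk5fl/fl mice, so embryos of both groups carried at least 1 floxed allele. The control groups were littermates, whose exact genotype the labels do not give, with 2 arrays for each of the 4 parts. The knockout groups, with 4 arrays for each part, were Alk5 mutants of this cross, made with Wnt1cre, a Cre transgene active in the neural crest that forms the facial mesenchyme, and the mutants were recognised by cleft palate and a defect of the calvaria. The epithelium, endothelium, blood and muscle of the jaws do not come from the cranial neural crest, so their RNA in each sample is from cells that the transgene does not target. The labels do not say which arrays share an embryo or a pool, so p-values measure only the spread between these samples. The 5 genes that mark the mandible (Hand2, Dlx5, Dlx6, Dlx3 and Gsc) were higher in the mandible than in the maxilla in both genotypes. Of these, 3 of the 5 passed the test in control and 5 of the 5 in the knockout, against 0.687% and 7.71% of all genes. The jaw labels thus went with their markers.

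Id proteins are helix-loop-helix proteins without a DNA-binding basic region. They pair with the widely expressed E proteins and keep them from forming DNA-binding dimers with tissue-specific basic helix-loop-helix (bHLH) factors, which holds many progenitor cells back from differentiation. Id1, Id2 and Id3 are direct targets of BMP signalling through Smad1 and Smad5 in many tissues, and TGF-beta can raise or lower them depending on the cell type. Id4 is prominent in the nervous system and in bone-forming mesenchyme.

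The genes lie on 4 chromosomes. In the GRCm38.p6 annotation Id1 spans chr2:152736251-152737410, Id2 chr12:25093799-25096092, Id3 chr4:136143822-136145392 and Id4 chr13:48261116-48266028. The 250 bases before the start site are printed for Id2, Id3 and Id4, so that the motifs of their proximal promoters can be set side by side. They are RefSeq sequences of GRCm38.p6, read 5′ to 3′ on the strand of the gene: chr12:25096093-25096342 on the minus strand, chr4:136143572-136143821 on the plus strand and chr13:48260866-48261115 on the plus strand. Capitals mark CCAAT on either strand and GGCGCC, a GC-rich element found in some BMP-responsive promoters.
Id2: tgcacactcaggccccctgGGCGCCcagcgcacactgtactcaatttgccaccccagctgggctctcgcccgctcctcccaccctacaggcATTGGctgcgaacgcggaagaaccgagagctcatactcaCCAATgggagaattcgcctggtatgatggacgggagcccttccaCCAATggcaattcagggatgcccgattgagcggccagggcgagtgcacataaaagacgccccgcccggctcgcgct
Id3: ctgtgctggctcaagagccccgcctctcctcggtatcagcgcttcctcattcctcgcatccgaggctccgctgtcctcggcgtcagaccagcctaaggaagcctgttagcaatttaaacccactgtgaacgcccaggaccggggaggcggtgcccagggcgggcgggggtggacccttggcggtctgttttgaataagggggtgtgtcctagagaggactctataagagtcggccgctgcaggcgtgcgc
Id4: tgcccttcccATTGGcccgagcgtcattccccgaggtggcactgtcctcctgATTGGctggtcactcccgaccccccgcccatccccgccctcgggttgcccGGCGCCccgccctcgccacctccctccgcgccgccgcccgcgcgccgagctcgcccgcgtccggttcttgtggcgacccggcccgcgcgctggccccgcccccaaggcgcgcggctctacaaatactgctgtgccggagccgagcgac
The Id2 window held 3 CCAAT boxes and 1 GGCGCC, and the Id4 window 2 CCAAT boxes and 1 GGCGCC. The Id3 window held none of either, and a TATAA at -29 from the start site instead. CANNTG, the E-box core that E proteins bind, was found 1 time in Id2 and 0 times in Id3 and Id4. Among 32851 mouse promoter windows of the same length, 33.8% held CCAAT on either strand, 9.59% GGCGCC, 66.2% CANNTG and 22.8% TATAA. A match describes letters in this window and not a binding site.

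The 24 arrays formed 3 sets: the controls, knockouts 1 and 2, and knockouts 3 and 4. The labels do not name these sets, which were told apart by control probe sets. Knockouts 1 and 2 stood apart in their 3′ signal, for a reason that the labels do not give. Control probe sets for Gapdh and actin read the 3′ end of their transcripts more strongly than the 5′ end, and this 3′ excess was 1.13 ± 0.28 (SD, n = 8 arrays) on the log2 scale in that set, against 0.18 ± 0.04 (SD, n = 8) in control and 0.08 ± 0.06 (SD, n = 8) in knockouts 3 and 4. The mean level of the hybridisation control probe sets was 10.68 in control, 11.74 in knockouts 1 and 2 and 9.20 in knockouts 3 and 4. All 8 control arrays had the expression pattern of males, and each knockout set held 4 male and 4 female arrays. By these genes the proximal maxilla of knockout 1 was female where its other 3 parts were male, and that of knockout 2 was male where its other 3 parts were female, so these 2 arrays go against their numbers. They lie in 1 set, so a mean of that set is the same if they are exchanged, while a mean of 1 number is not. Array set and genotype therefore cannot be told apart for any difference from control, and sex differed in part between the genotypes. The erythroid markers were higher in knockouts 1 and 2 for 7 of 7 genes tested, all of them past the test, with a median difference of 1.28. They were lower in knockouts 3 and 4 for 7 of 7, with a median of -0.22 and 1 past the test. Of all genes, 52.6% passed in knockouts 1 and 2 and 1.56% in knockouts 3 and 4. The brightest Tgfbr1 probe set ranged from 11.98 to 12.69 in control, 12.07 to 12.64 in knockouts 1 and 2 and 12.32 to 12.52 in knockouts 3 and 4. Its other probe sets had means of 7.57, 5.95 and 6.75, and of 7.03, 5.10 and 7.63, in the same order of sets. Where these probes lie relative to the deleted exon is not given in the sources used here, so they check no label.

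The first question was whether the Id genes differed between the knockout and control jaws. In knockouts 1 and 2 all 4 Id genes were lower than in control, Id4 by the most, whereas in knockouts 3 and 4 none of the 4 passed the test in either direction. Of all genes, 52.6% were called in knockouts 1 and 2. The share of all genes whose arrays do not overlap between these sets was not counted. Where the values below do not overlap, this describes the gene and does not set it apart from other genes.

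Id4 varied most between arrays, with an SD of 1.63 over the 24 against 0.37 to 0.47 for the other members. In the proximal mandible it measured 9.87 and 10.38 in controls 1 and 2, 6.79 and 6.85 in knockouts 1 and 2, and 10.26 and 9.81 in knockouts 3 and 4. In the distal mandible the values were 10.30 and 9.35, then 7.01 and 7.25, then 10.77 and 10.46. The 4 mandible arrays of knockouts 1 and 2 thus lay far below every other array, near the filter level of 6.07. In the proximal maxilla the values were 11.00 and 11.63, then 9.94 and 8.66, then 11.47 and 11.76. In the distal maxilla they were 11.96 and 11.29, then 9.52 and 10.62, then 11.87 and 11.64. Within each jaw, knockouts 1 and 2 did not overlap the controls, while knockouts 3 and 4 did.

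Id2, which is broadly expressed in facial mesenchyme and in other tissues of the embryo, measured 12.31 and 12.45 in the proximal mandible of control, 11.24 and 11.16 in knockouts 1 and 2, and 12.12 and 12.01 in knockouts 3 and 4. In the distal mandible it measured 12.19 and 12.24, 10.79 and 11.12, and 12.11 and 12.30. All 8 arrays of knockouts 1 and 2 lay below all 8 control arrays, with the gap widest in the mandible. How many of all genes do the same was not counted. In the proximal maxilla Id2 measured 12.12 and 12.35, 12.09 and 11.85, and 12.32 and 11.88, and in the distal maxilla 12.13 and 12.36, 11.46 and 12.07, and 12.49 and 12.40.

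Id3, a close relative of Id1 that often shares its sites of expression, measured 12.14 and 12.33 in the proximal mandible of control, 11.58 and 11.35 in knockouts 1 and 2, and 12.13 and 12.13 in knockouts 3 and 4. In the distal mandible the values were 12.08 and 12.18, 11.23 and 11.37, and 12.01 and 12.13. In both jaws the arrays of knockouts 1 and 2 lay below the control arrays of the same jaw, and 6 of the 8 lay below all 8 controls. In the proximal maxilla Id3 measured 12.19 and 12.57, 12.13 and 11.79, and 12.21 and 12.26, and in the distal maxilla 12.54 and 12.45, 11.81 and 12.11, and 12.51 and 12.43.

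Id1, the member most widely used as a readout of BMP signalling, measured 11.85 and 11.85 in the proximal mandible of control, 11.11 and 11.04 in knockouts 1 and 2, and 12.16 and 12.18 in knockouts 3 and 4. In the distal mandible the values were 11.67 and 11.98, 11.25 and 11.56, and 12.0003 and 12.16. In the mandible the sets did not overlap and took the order knockouts 1 and 2, control, knockouts 3 and 4. In the proximal maxilla Id1 measured 11.66 and 12.18, 12.17 and 11.63, and 12.14 and 12.14, so that knockout 1 lay among the other sets there. In the distal maxilla the values were 11.95 and 12.12, 11.66 and 11.66, and 12.44 and 12.42.

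**Figure D1:**
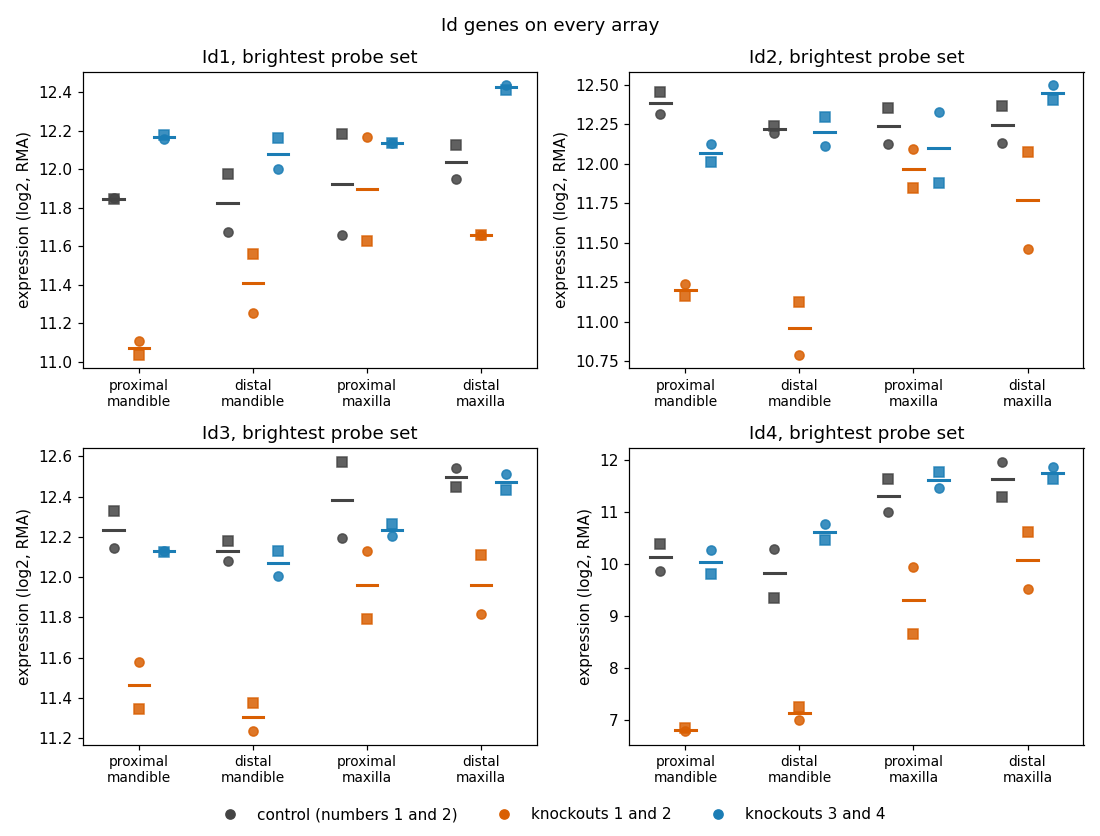
Expression (log2, RMA) of Id1, Id2, Id3 and Id4 on the 24 arrays by part; each point is an array (circles, numbers 1 and 3; squares, numbers 2 and 4), each line the mean of 2 arrays, and the colours give control, knockouts 1 and 2 and knockouts 3 and 4. The mandible arrays of knockouts 1 and 2 lie lowest for all 4 genes, at 6.79 to 7.25 for Id4. How many of all genes do the same was not counted.

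Over all parts, the means of the 8 arrays of each set were 10.72 ± 0.90 (SD) in control, 8.33 ± 1.55 in knockouts 1 and 2 and 11.00 ± 0.78 in knockouts 3 and 4 for Id4. For Id2 they were 12.27 ± 0.12, 11.47 ± 0.48 and 12.20 ± 0.21. For Id3 they were 12.31 ± 0.19, 11.67 ± 0.34 and 12.23 ± 0.17, and for Id1 11.91 ± 0.19, 11.51 ± 0.37 and 12.20 ± 0.15. The SD within a set includes the differences between parts, which are large for Id4.

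Differences between sets were tested with limma on the log2 values after averaging the 4 parts of each replicate number, with Benjamini-Hochberg adjustment over all 13837 genes. In knockouts 1 and 2 against control, with 2 means in each group, Id4 fell by 2.39 ± 0.08 (SE; adjusted p = 0.00139), which is 5.26-fold. Id2 fell by 0.80 ± 0.10 (adjusted p = 0.00379) and Id3 by 0.64 ± 0.08 (adjusted p = 0.00403). Id1 fell by 0.40 ± 0.11 (adjusted p = 0.0320). These SEs come from the spread between numbers, and the labels do not say that the parts of a number belong together. In deviations from the group means, the control distal mandible arrays ran against the other parts of their numbers (r from -0.68 to -0.37). Averaging such parts can narrow the spread between the control means, so the SEs depend on the numbering. The 4 of 4 members called stand against 52.6% of all genes called in this comparison, 2897 higher and 4382 lower, so a call there was common. Id4 was rank 7 of all genes by p, whereas Id2 was rank 2225, Id3 rank 2343 and Id1 rank 6526. With the proximal maxilla arrays of knockouts 1 and 2 exchanged, an alternative chosen after seeing the data, the 4 calls held (adjusted p from 0.00292 to 0.0496), but the SE of Id4 became 0.23 and its rank 771, so the rank of 7 rests on how these arrays were numbered. With the 3′ excess as a covariate 0 of the 4 members and 0 of all genes were called, and the differences were -2.27 ± 0.82 (SE) for Id4, -0.77 ± 0.88 for Id3, -0.74 ± 1.25 for Id1 and 0.45 ± 0.88 for Id2. The 3′ excess averaged 0.18 in control and 1.13 in knockouts 1 and 2, so it nearly followed the set. With 2 means in each group this fit cannot separate it from the set. That the Id4 value lay close to the one without the covariate, with a larger SE, is therefore no result about the 3′ excess. With sex as a covariate Id4 was still called, with 2522 genes in all, and Id2 differed by -0.95 ± 0.16 (limma adjusted p = 0.0502), Id3 by -0.60 ± 0.15 (adjusted p = 0.0816) and Id1 by -0.32 ± 0.21 (adjusted p = 0.320). Id1 was also lost without control 2 (adjusted p = 0.0835), without knockout 1 (0.119) and without knockout 2 (0.150), at -0.27, -0.44 and -0.36.

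In knockouts 3 and 4 against the same controls, 0 of the 4 members were called, against 1.56% of all genes. Id1 differed by 0.30 ± 0.10 (SE; limma adjusted p = 0.168) and Id4 by 0.28 ± 0.09 (adjusted p = 0.153). Id2 differed by -0.07 ± 0.08 (adjusted p = 0.641) and Id3 by -0.09 ± 0.07 (adjusted p = 0.481). At an unadjusted p under 0.05 Id1 and Id4 passed, with 3713 genes in all. The SEs here depend on the numbering of the control arrays in the same way. Without control 2 the Id1 difference was 0.42 ± 0.07 and passed the test (limma adjusted p = 0.0406).

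With all 4 knockout means against the 2 control means, 0 of the 4 members and 0% of all genes were called by limma, with 965 genes at an unadjusted p under 0.05. The differences were -1.06 ± 0.96 (SE) for Id4, -0.43 ± 0.28 for Id2, -0.36 ± 0.22 for Id3 and -0.05 ± 0.27 for Id1. By these probe sets, the brightest, the knockout sets lay on different sides of control for Id4 and Id1, and this spread is in the SE. The other Id4 probe sets gave -0.35 and -0.04 in knockouts 3 and 4, below control as in knockouts 1 and 2.

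Within single parts, 4 knockout arrays were compared with 2 control arrays. None of the 4 members was called in the proximal mandible (0% of all genes called), the distal mandible (0.0145%), the proximal maxilla (0.00723%) or the distal maxilla (0.00723%), against 1058, 1364, 879 and 676 genes at an unadjusted p under 0.05. No member passed that unadjusted level either. The Id4 difference was -1.70 ± 1.18 (SE) in the proximal mandible, -0.95 ± 1.18 in the distal mandible, -0.86 ± 1.18 in the proximal maxilla and -0.71 ± 1.18 in the distal maxilla. The Id2 difference was -0.75 ± 0.37, -0.64 ± 0.37, -0.20 ± 0.37 and -0.14 ± 0.37 in the same order, and the Id3 difference -0.44, -0.44, -0.29 and -0.28, each ± 0.27. The Id1 difference was -0.23, -0.08, 0.10 and 0.00, each ± 0.34. Where the array sets were fitted as groups of their own, so that their difference left the residual, 3 of 4 members were called lower in the proximal mandible (Id2, Id3 and Id4), against 11.5% of all genes called, and 2 of 4 in the distal mandible (Id2 and Id3), against 23.0%.

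The probe sets of 1 gene did not always move alike. One of the other Id2 probe sets, 1422537_a_at, was lower in knockouts 1 and 2 by -0.70 ± 0.12 (SE; limma adjusted p = 0.00843), close to the brightest one, but the remaining one, 1453596_at, differed by 0.36 ± 0.14 (adjusted p = 0.0819). The latter measured 8.04 to 9.64 in knockouts 1 and 2 and 7.99 to 8.61 in control, and in the maxilla its 4 arrays of knockouts 1 and 2 lay above the 4 controls. For Id4, 1450928_at differed by -1.21 ± 0.14 (adjusted p = 0.00333) and 1423260_at by -0.48 ± 0.17 (adjusted p = 0.0634), where the brightest gave -2.39. In knockouts 3 and 4 the 3 Id4 probe sets gave 0.28 ± 0.09, -0.35 ± 0.15 and -0.04 ± 0.07, so the sign there depended on the probe set. With the mean of all probe sets of each gene the Id2 difference in knockouts 1 and 2 was -0.38 and the Id4 difference -1.36. Where each of these probe sets lies along its transcript is not given in the sources used here. The 3′ excess moved with these differences, and its part in the spread between probe sets was not tested.

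**Figure D2:**
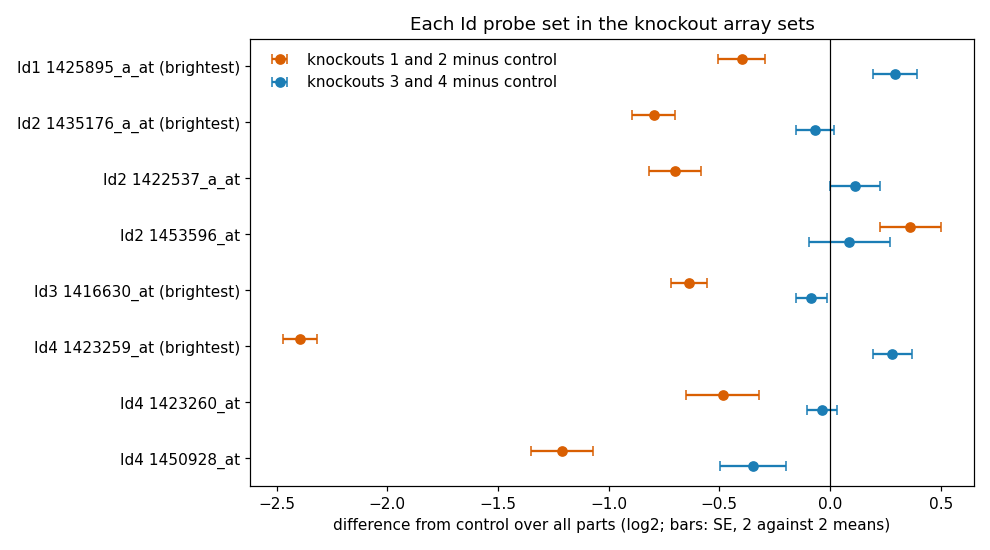
Difference from control over all parts (log2, with the SE of 2 against 2 means) for each of the 8 Id probe sets in knockouts 1 and 2 and in knockouts 3 and 4. In knockouts 1 and 2 the 3 Id4 probe sets run from -2.39 to -0.48, and 1 of the 3 Id2 probe sets lies above 0.

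Markers of other cell types were read in the same comparison, in which 52.6% of all genes were called. A count of calls near or below that share is no more than this background. In knockouts 1 and 2, 7 of 10 endothelial markers were called lower and 1 higher, with a median of -0.52, and their mean level per array was 8.34 to 9.03 against 9.11 to 9.44 in control. Of 8 facial mesenchyme markers tested, 4 were called lower (median -0.50; mean level 10.80 to 12.22 against 11.39 to 12.55). Of 5 glial and migrating neural crest markers 3 were called lower (median -0.80; 6.80 to 8.96 against 7.92 to 9.72), and of 10 neuron markers 2 (median -0.65; 6.77 to 10.11 against 7.62 to 11.96). Of 10 epithelial markers 4 were called higher (median 0.39; 9.83 to 10.92 against 9.24 to 10.85), as were 2 of 8 macrophage markers (median 0.17; 7.73 to 8.48 against 7.37 to 8.33). Of 8 cartilage markers 7 were called lower (median -1.17; 8.47 to 9.40 against 9.77 to 11.32), and of 8 muscle markers 0 (median -0.78; 5.97 to 9.85 against 5.85 to 10.94). In these bulk samples fewer cells of a type and less RNA per cell cannot be told apart, and the part of cell makeup in the Id differences was not tested.

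The second question was how the Id genes differed between the jaws. Id4 was lower in the mandible than in the maxilla in both genotypes and all 3 array sets, and the other 3 members were lower in the knockout mandible by smaller amounts. In every one of the 6 replicate numbers both mandible arrays lay below both maxilla arrays for Id3 and for Id4, and this held for each of the 3 Id4 probe sets. It was so in 3 of 6 numbers for Id1 and in 3 of 6 for Id2, and 126 of all 13837 genes, 0.911%, lay lower in the mandible in all 6 numbers.

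In the control, Id4 measured 9.35 to 10.38 in the 4 mandible arrays and 11.00 to 11.96 in the 4 maxilla arrays, without overlap. The difference, mandible minus maxilla, was -1.49 ± 0.31 (SE; limma adjusted p = 0.0392), or 2.82-fold, and lower in the mandible in 2 of 2 controls. It was the 1 of 4 members called, against 0.687% of all genes. The other Id4 probe sets gave -1.39 ± 0.28 (adjusted p = 0.0327) and -1.65 ± 0.25 (adjusted p = 0.00747). The call for the brightest probe set ended without any single replicate number, at adjusted p from 0.0515 to 0.181, with differences from -1.59 to -1.40. Id3 differed by -0.26 ± 0.10 (adjusted p = 0.328), Id1 by -0.14 ± 0.13 (adjusted p = 0.821) and Id2 by 0.06 ± 0.13 (adjusted p = 0.974).

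In the knockout all 4 members were called lower in the mandible, against 7.71% of all genes, 462 higher and 605 lower. Id4 measured 6.79 to 10.77 in the 8 mandible arrays and 8.66 to 11.87 in the 8 maxilla arrays, overlapping across the array sets but within neither of them. Its difference was -2.03 ± 0.22 (SE; limma adjusted p = 8.72e-05), or 4.10-fold. Id3 differed by -0.42 ± 0.07 (adjusted p = 0.00286), Id2 by -0.46 ± 0.09 (adjusted p = 0.00841) and Id1 by -0.35 ± 0.09 (adjusted p = 0.0277). All 4 knockout numbers were lower in the mandible for Id1, Id3 and Id4, and 3 of 4 for Id2. Without knockout 3 or without knockout 4 only Id4 was called, and without knockout 1 the Id1 difference was -0.25 (adjusted p = 0.119).

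The 2 knockout sets gave unlike sizes. The Id4 difference between the jaws was -2.71 in knockouts 1 and 2, -1.36 in knockouts 3 and 4 and -1.49 in control. For Id3 it was -0.58, -0.25 and -0.26, and for Id1 -0.54, -0.16 and -0.14. For Id2 it was -0.79, -0.14 and 0.06. For all 4 members knockouts 3 and 4 thus lay near control and knockouts 1 and 2 lay lower. The less bright Id4 probe sets gave a narrower range, -1.73, -1.33 and -1.39 for 1423260_at and -2.44, -1.62 and -1.65 for 1450928_at.

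**Figure D3:**
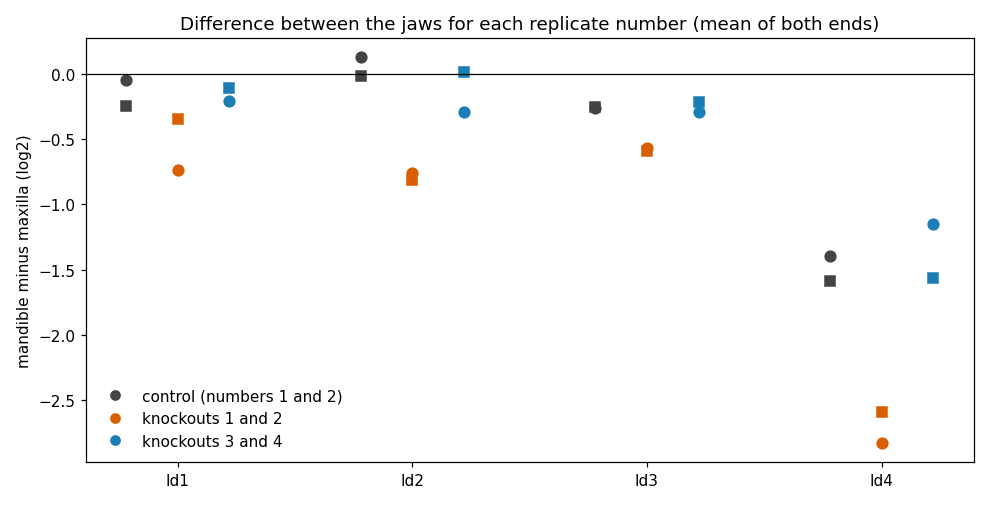
Mandible minus maxilla (log2, mean of both ends) for each of the 6 replicate numbers and each Id gene; circles are numbers 1 and 3, squares numbers 2 and 4, coloured by array set. Id4 lies between -2.83 and -1.15 in all 6 numbers, and knockouts 1 and 2 lie lowest for each gene.

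Whether the jaw difference itself depended on genotype was tested as an interaction, knockout minus control of mandible minus maxilla. It was -0.54 ± 0.38 (SE) for Id4, -0.52 ± 0.16 for Id2, -0.21 ± 0.15 for Id1 and -0.16 ± 0.12 for Id3. None of the 4 passed (limma adjusted p = 0.995 each), and 0% of all genes did, with 570 at an unadjusted p under 0.05, Id2 among them at rank 87. Taken set by set, the interaction in knockouts 1 and 2 was -0.84 ± 0.19 for Id2 (adjusted p = 0.118), -1.22 ± 0.43 for Id4 (adjusted p = 0.405), -0.40 ± 0.18 for Id1 (adjusted p = 0.509) and -0.32 ± 0.14 for Id3 (adjusted p = 0.508), against 0.137% of all genes called. Without knockout 1 the Id2 interaction was -0.87 ± 0.18 and passed (adjusted p = 0.0275). In knockouts 3 and 4 it was -0.20 for Id2, 0.13 for Id4, -0.01 for Id1 and 0.00 for Id3 (limma adjusted p = 1.00 each), with 0% of all genes called and 179 at an unadjusted p under 0.05.

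Neuron markers, which include Pou4f1 and Isl1 of sensory neurons, also differed between the jaws. The mean level of the 10 markers was 7.62 to 9.48 in the control mandible and 7.97 to 11.96 in the control maxilla, 6.77 to 7.15 and 7.84 to 10.11 in knockouts 1 and 2, and 7.63 to 8.34 and 7.96 to 10.61 in knockouts 3 and 4. The median difference between the jaws was -1.21 in control, where 0 of 10 were called, and -2.01 in the knockout, where 5 of 10 were called lower. Of all genes, 0.687% were called between the jaws in control and 7.71% in the knockout, which had more arrays. Of the 4 control maxilla arrays, 3 had a neuron marker mean below that of the highest control mandible array, and Id4 measured 11.29 to 11.96 in these 3, above all 4 mandible arrays. This count rests on 1 array, the proximal mandible of control 1 at 9.48: without it the highest control mandible array was at 8.29, and 1 of the 4 maxilla arrays, at 7.97 with Id4 at 11.29, lay below that. In knockouts 3 and 4 this was so for 2 of the 4 maxilla arrays, with Id4 at 11.47 and 11.64 against 9.81 to 10.77 in the mandible. In knockouts 1 and 2 it was so for 0 of 4, so there the neuron markers and Id4 separated the jaws together, and their part in the Id4 difference was not tested. The control maxilla array with the highest neuron marker mean, 11.96, had the lowest Id4 level of the 4, 11.00. In knockouts 1 and 2 the maxilla array with the highest mean, 10.11, also had the lowest Id4 level, 8.66. In knockouts 3 and 4 that array, at 10.61, had Id4 at 11.76, within the maxilla range of 11.47 to 11.87. The part of neurons in the Id4 difference was not tested in any set. The mean of the facial mesenchyme markers also differed between the jaws, most in knockouts 1 and 2. Their mean level was 10.80 to 11.40 in the mandible and 11.88 to 12.22 in the maxilla of that set, without overlap, against 11.39 to 12.46 and 11.66 to 12.55 in control and 11.38 to 12.41 and 11.90 to 12.47 in knockouts 3 and 4. Of the 8 markers 6 were higher and 2 lower in the control mandible (median 0.29, 0 called). Their mean level was nevertheless lower there, 11.92 against 12.14 in the maxilla. In the knockout mandible 3 of the 8 were higher and 5 lower (median -0.21), with 2 called lower. Their interaction of genotype and jaw was negative for 8 of 8, with none called and a median of -0.41, or -0.70 for knockouts 1 and 2 alone. The part of the mesenchyme markers in the jaw differences of the Id genes was not tested. Of 8 muscle markers 8 were higher in the mandible in both genotypes (median 2.18 in control, 0 called; 3.02 in the knockout, 5 called). Of 10 epithelial markers 7 were lower in the control mandible (median -0.47, 0 called) and 8 in the knockout mandible (median -0.25, 1 called).

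**Figure D4:**
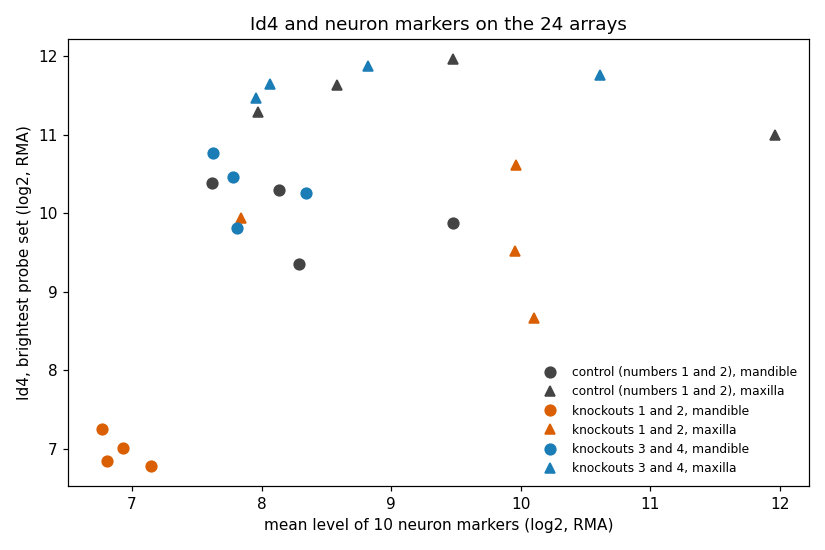
Level of Id4 (log2, brightest probe set) against the mean level of 10 neuron markers (log2) on the 24 arrays; circles are mandible and triangles maxilla, coloured by array set. The control maxilla arrays lie above the control mandible arrays in Id4, and only 1 control mandible array has a neuron marker mean above 8.29, at 9.48.

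Between the ends of a jaw none of the 4 Id genes passed the test. In control, distal minus proximal was 0.05 ± 0.13 (SE) for Id1, -0.08 ± 0.13 for Id2, 0.00 ± 0.10 for Id3 and 0.00 ± 0.31 for Id4, with 0 of 4 members and 0% of all genes called by limma and 149 genes at an unadjusted p under 0.05. The 2 controls ran opposite ways for Id4, 0.69 in control 1 and -0.68 in control 2. In deviations from the group means, the control distal mandible arrays ran against the other parts of their numbers (r from -0.68 to -0.37). These values by number thus depend on how the arrays were numbered. In the knockout Id4 differed by 0.45 ± 0.22 (adjusted p = 0.448), and the other 3 members by 0.01 to 0.07, with 0 of 4 called against 0.463% of all genes. The other Id4 probe sets gave 0.57 ± 0.20 (SE) and 0.57 ± 0.18 there (adjusted p = 0.277 and 0.228). By number, distal minus proximal for Id4 was -0.10, 1.18, 0.46 and 0.27 in knockouts 1 to 4, and with the proximal maxilla arrays of knockouts 1 and 2 exchanged the first of these became 0.54 and the next 0.54. By set it was 0.54 in knockouts 1 and 2 and 0.36 in knockouts 3 and 4. The Id2 mean of 0.01, from the brightest probe set, joins values of opposite sign, -0.22 in knockouts 1 and 2 and 0.24 in knockouts 3 and 4. The other Id2 probe sets had no opposite signs, at 0.02 and 0.34 for 1422537_a_at and 0.07 and 0.47 for 1453596_at, in the same order of sets. The interaction of genotype and end was 0.45 ± 0.38 for Id4 and between 0.00 and 0.09 for the others, with 0 of 4 called against 0.00723% of all genes.

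Placed in order, the 12 means of set and part for Id4 began with the distal maxilla of knockouts 3 and 4 (11.75), the control distal maxilla (11.63), the proximal maxilla of knockouts 3 and 4 (11.61) and the control proximal maxilla (11.31), and these neighbours overlapped array by array. A gap without overlap separated them from the distal mandible of knockouts 3 and 4 (10.61), and another separated that from the control proximal mandible (10.13). The distal maxilla of knockouts 1 and 2 (10.07), the proximal mandible of knockouts 3 and 4 (10.03), the control distal mandible (9.82) and the proximal maxilla of knockouts 1 and 2 (9.30) followed, each overlapping its neighbour. The distal and proximal mandible of knockouts 1 and 2 (7.13 and 6.82) came last, set off by gaps. Of the 11 pairs of neighbours 7 overlapped for Id4, 9 for Id2, 9 for Id3 and 6 for Id1. Such overlaps and gaps were not counted over all genes, so they describe these genes and do not set them apart. The 2 lowest means were the mandible parts of knockouts 1 and 2 for all 4 genes. How many of all genes share this was not counted, and 52.6% of all genes were called against control in that set.

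The 4 members were correlated with each other, but for most pairs many other genes were more closely correlated with the member. Over the 24 arrays Pearson's r ranged from 0.80 (Id1 with Id2) to 0.93 (Id3 with Id4). After the mean of each array set was subtracted, which leaves in the larger jaw differences of knockouts 1 and 2, it ranged from 0.67 (Id2 with Id4, and Id1 with Id4) to 0.88 (Id3 with Id4). Ranked by r among all genes after the subtraction, Id3 was rank 20 for Id4, Id4 rank 13 for Id3, Id3 rank 5 for Id1 and Id3 rank 68 for Id2, while Id4 was rank 793 and Id1 rank 527 for Id2. As deposited, Id3 was rank 23, Id4 rank 844 and Id1 rank 1686 for Id2. These are descriptions over arrays that share parts, sets and possibly embryos. After the same subtraction the genes most like Id4 were Ank, a pyrophosphate transporter (r = 0.96), Tmem30b (0.95), P4ha3, a subunit of collagen prolyl hydroxylase (0.92), Gse1 (0.92) and Trpc1 (0.92). Those most like Id3 were Gse1 (0.91), Serpinf1 (0.91), Cyp39a1 (0.91), Pgrmc1 (0.90) and Mxi1 (0.90). Those most like Id1 were Prrx2, a homeobox gene of craniofacial and limb mesenchyme (0.82), Ptges (0.82), Lrrc61 (0.80), Pmaip1 (0.80) and Id3 (0.80). Those most like Id2 were Dstn (0.89), Cyb5a (0.89), Poc5 (0.87), Hnrnpa0 (0.87) and Pex13 (0.86). Without the subtraction, Ank was again first for Id4 (0.97), with Ccsap, Myl12b, Fam241b and Id3 next, and Dstn was again first for Id2 (0.94), with Sppl2a, Crot, Gtf2e2 and Bahd1 next. For Id3 the first were then Cbll1 (0.95), Nbr1, Pgrmc1, Tnfrsf21 and Zkscan1, and for Id1 Smarce1 (0.90), Ago4, Ptges, Tmem216 and Nfkbia.

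BMP ligands, receptors, Smads and antagonists form the pathway upstream of the Id genes. The list used here also named Msx1, Msx2, Atoh8, Smurf1 and Smurf2, which are none of these. Of 25 listed genes tested, 11 were called lower and 2 higher in knockouts 1 and 2 (median difference -0.27, against -0.06 over all genes). These are 13 in all, near the 52.6% of all genes called there. Acvr1, a type I BMP receptor, fell by 1.78 ± 0.07 (SE; limma adjusted p = 0.00148), and Acvr2b, a type II receptor of activins and BMPs, rose by 1.81 ± 0.08 (adjusted p = 0.00148). Nog, the BMP antagonist noggin, fell by 1.75 ± 0.09 (adjusted p = 0.00150) and the ligand Bmp5 fell by 1.86 ± 0.12 (adjusted p = 0.00155). In knockouts 3 and 4 none of the 25 was called (median -0.06); Nog differed by -0.64 ± 0.09 (adjusted p = 0.0583) and Bmp5 by -0.39 ± 0.11 (adjusted p = 0.129). Between the jaws 0 of 25 were called in control, against 0.687% of all genes, and 1 in the knockout, against 7.71%. Smad7, an inhibitory Smad, was lower in the knockout mandible by -0.67 ± 0.14 (adjusted p = 0.00800).

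E proteins and tissue bHLH factors are the partners that Id proteins hold apart. None of the 3 E protein genes was called in knockouts 1 and 2, where Tcf12 differed by 0.18 ± 0.10 (SE; limma adjusted p = 0.198) and Tcf3 by 0.13 ± 0.08 (adjusted p = 0.239), in knockouts 3 and 4, or between the jaws. Of 18 tissue bHLH factors tested, 1 was called lower and 2 higher in knockouts 1 and 2 (median -0.16), a smaller share than the 52.6% of all genes: Scx, the tendon progenitor factor scleraxis, fell by 2.03 ± 0.25 (adjusted p = 0.00373), and the blood and endothelial factors Tal1 and Lyl1 rose by 1.02 ± 0.10 (adjusted p = 0.00249) and 0.83 ± 0.09 (adjusted p = 0.00324). In knockouts 3 and 4 Scx differed by -1.45 ± 0.26 without passing (adjusted p = 0.0779). Between the jaws, Hand2, a mandibular patterning factor, was higher in the mandible by 4.08 ± 0.49 in control and 4.33 ± 0.35 in the knockout. Tcf21, a factor of branchial muscle and mesenchyme progenitors, was higher by 2.05 ± 0.42 and 1.97 ± 0.30, and Neurod1, a neuronal factor, was lower by -4.27 ± 0.72 and -4.04 ± 0.51, each past the test. In all, 2 of the 18 were called higher and 1 lower in the control mandible, against 0.687% of all genes called. In the knockout mandible, which had more arrays, 7 were called higher and 1 lower, against 7.71% of all genes.

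Hes and Hey genes encode related repressors that act mainly downstream of Notch. Of 7 tested, 3 were called lower in knockouts 1 and 2 (median -0.35), where 52.6% of all genes were called: Hes1 fell by 0.84 ± 0.07 (SE; limma adjusted p = 0.00185), Hey1 by 0.79 ± 0.09 (adjusted p = 0.00312) and Hey2 by 2.08 ± 0.48 (adjusted p = 0.0212). None was called in knockouts 3 and 4. Between the jaws Hey1 alone was called, lower in the knockout mandible by -0.90 ± 0.16 (adjusted p = 0.00358), where 7.71% of all genes were called.

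Cell cycle inhibitors and G1 regulators include targets that Id proteins are known to hold down through bHLH factors. Of 12 tested, 5 were called lower and 1 higher in knockouts 1 and 2 (median -0.14), near the 52.6% of all genes called there. The pocket protein gene Rbl2 fell by 2.21 ± 0.09 (SE; limma adjusted p = 0.00139), the CDK inhibitor gene Cdkn2c by 1.26 ± 0.16 (adjusted p = 0.00402) and Rbl1 by 0.64 ± 0.10 (adjusted p = 0.00725), while the cyclin gene Ccne1 rose by 0.47 ± 0.07 (adjusted p = 0.00643). None was called in knockouts 3 and 4. In the control mandible 2 were called higher than in the maxilla, Cdkn1c by 0.51 ± 0.11 (adjusted p = 0.0392) and Ccne1 by 0.40 ± 0.08 (adjusted p = 0.0448). In the knockout mandible 3 were, Cdkn1c by 0.59 ± 0.07 (adjusted p = 0.000282), Ccnd1 by 0.54 ± 0.12 (adjusted p = 0.0136) and Ccne1 by 0.26 ± 0.06 (adjusted p = 0.0166). Of all genes, 0.687% were called between the jaws in control and 7.71% in the knockout.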

How the data were processed

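Levels on the 24 arrays are log2 values that the authors made from the array intensities with RMA, per the submitters' processing notes; the version, and whether all arrays went through 1 run, are not given in the sources used here. Of 45101 probe sets, 34945 had 1 gene symbol, 932 several and 9160 none in the platform annotation, and 64 were controls. Each of 18193 genes was represented by its brightest probe set, and 13837 genes reached 6.07 (the 40th percentile) on at least 2 arrays. Tests were run in R 4.3.3 with limma 3.58.1 (moderated, 2-sided), with Benjamini-Hochberg adjustment and a threshold of 0.05. Set comparisons used means over parts, single parts 8 group means, and jaws, ends and interactions 12 group means (set by part). The members, array sets and gene lists were chosen with earlier results of these data known. Named list genes are up to 4 past the threshold by smallest p, or the 2 smallest p. The fit was tested on simulated data. Deviations of same-numbered knockout parts from their group means (r from 0.38 to 0.83) follow the array sets; within sets r ran from -0.31 to 0.35, so numbers were not taken as pairs. The number of arrays limits the precision.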

Additional observations from a re-analysis of the deposited data

Results flagged for a closer look

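Among 16 groups of 4 arrays checked (the 4 Id genes in the 4 knockout parts), 1 held an array that stood far from the rest: for Id1 in the knockout proximal maxilla, the gap below the lowest array, knockout 2 at 11.63, was 0.942 of the whole range, and the other 3 arrays lay between 12.14 and 12.17. The cutoff marks about 1 in 20 groups by chance if the 4 arrays are alike. Each group here joins 2 array sets that differ, and the genes share arrays, so that rate does not hold.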

How the results depend on the processing

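Each value was recomputed with 1 choice changed at a time. Over the member values, 867 kept their direction and side of the threshold, 39 lost the call, 10 gained it and 66 uncalled values changed sign or moved. The 2 reversals were both Id2 in knockouts 1 and 2: 0.45 with the 3′ excess as covariate and 0.36 with the probe set 1453596_at, an alternative chosen after seeing the data; the cause of the first was not tested. Of the 4 members, the knockout comparison over all parts called 3 with the replicate block (6393 genes in all); knockouts 3 and 4 share no number with a control and so add nothing to it, which makes these the values of knockouts 1 and 2. That set called 0 with the 3′ excess as covariate (0 of all genes) and 1 with sex (2522 of all genes), with the values given above, and quantile normalisation ended the Id1 call (adjusted p = 0.0691). Leaving out 1 replicate, with a lone remaining sample taken to vary like the others, gave 0 to 1 in knockouts 3 and 4, 0 in each case for the jaws in control and 1 to 4 for the jaws in the knockout. With 12 group means the proximal mandible called 3 (1585 of all genes) and the distal mandible 2 (3186), since the spread between sets leaves the residual. For the jaws in control, the replicate block, 8 group means, the crossed replicate block and the block with the exchanged proximal maxilla each called 0. For the jaws in the knockout, 8 group means called 0 and the replicate block 2, without Id2 (adjusted p = 0.0541) and Id1 (0.0763); with the exchange it called 3. Numbers share only a number: r between parts was -0.68 to 0.58 in control, -0.31 to 0.22 within knockouts 1 and 2 (-0.31 to -0.14 with the proximal maxilla) and 0.07 to 0.35 within knockouts 3 and 4, and between genotypes -0.50 to 0.22. Apart from the calls given here and above, the block changed no call but that of Id1 in knockouts 1 and 2 (adjusted p = 0.0562). With 2 arrays per set and part, small differences are not resolved.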
